A study of Mus musculus with 8 samples.

Results

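Complex I (NADH dehydrogenase) is the first enzyme of the mitochondrial respiratory chain. Its NADH-binding and quinone-binding parts stand in the matrix and pass electrons from NADH over a flavin and a row of iron-sulfur clusters to ubiquinone, and a membrane arm pumps protons. Nuclear genes named Nduf code for core subunits (some Ndufs and Ndufv genes), for accessory subunits that surround the core (Ndufa, Ndufb, Ndufc, Ndufab1 and the other Ndufs and Ndufv genes) and for assembly factors that build the complex but are not part of it (Ndufaf). In the lens, differentiating fiber cells later degrade their mitochondria together with their nuclei, so that the centre of the lens has no respiratory chain.

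Members were the probe sets that the platform annotation assigns to 1 gene alone with a symbol starting with Nduf. There were 74 such probe sets for 39 genes, out of 22626 probe sets tested and 12393 genes named alone on the array, and 68 of the 74 had a mean at or above the median of all probe sets. A further 8 probe sets name an Nduf gene together with another gene and were kept apart.

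The samples, 4 dnBrg1 and 4 wild type, were RNA from whole lenses of mouse embryos at embryonic day 15.5, described as of mixed background. The dnBrg1 embryos carried a transgene for a FLAG-tagged, dominant-negative form of Brg1 (Smarca4, the ATPase of SWI/SNF chromatin remodelling complexes), driven by the αA-crystallin promoter, which acts in postmitotic lens fiber cells and leaves endogenous Brg1 in place. They were heterozygous animals of a single founder line, and the wild type embryos were littermates without the transgene. In whole lenses, fewer cells of a type and less RNA per cell cannot be told apart. All levels are log2 of the deposited array intensity, so that they can be compared between samples for one probe set but not between probe sets, and every difference is dnBrg1 minus wild type on the log2 scale. It was tested with limma, adjusted over all 22626 probe sets, and called at an adjusted p under 0.05; errors of differences are SE, and those of means SD (n = 4 each).

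The Smarca4 probe set 1426805_at was 5.10-fold higher in dnBrg1 lenses (difference 2.35 ± 0.21, adjusted p = 4.8e-05), while 1426804_at differed by -0.24 (adjusted p = 0.12). The lens label held, in that fiber cell markers were strongly expressed. Their summed level ran from 17.3 to 17.5 in dnBrg1 and from 17.3 to 17.4 in wild type lenses, and 2 of the 12 were called higher (Bfsp1 and Gja3) and 2 lower (Cryga and Crygd). The sum is carried by crystallins such as Cryaa (14.31 ± 0.02 in dnBrg1 and 14.27 ± 0.07 in wild type lenses) near the highest level on the arrays (14.7 to 14.8), so that it could show little change. Markers of other cells and tissues held calls too, where 40.7% of all genes were called (17.5% higher, 23.3% lower). Skeletal muscle markers summed to 10.3 to 13.2 in dnBrg1 and 9.83 to 10.6 in wild type lenses, with overlap (4 of 14 called higher and 0 lower). Retina and neuron markers summed to 13.2 to 13.7 in dnBrg1 and 13.6 to 14.2 in wild type lenses, with overlap (1 of 10 higher and 7 lower). Macrophage markers summed to 11.2 to 12.2 in dnBrg1 and 13.0 to 13.3 in wild type lenses (3 of 8 higher and 2, C1qb and Csf1r, lower). Higher and lower markers numbered 2 and 2 of 6 for lens epithelium, 3 and 2 of 7 for vasculature and 0 and 2 of 5 for pigment cells. Mesenchyme markers summed to 12.0 to 13.6 in dnBrg1 and 12.3 to 12.9 in wild type lenses, and blood cell markers to 11.3 to 13.4 and 12.3 to 13.1. No mesenchyme or blood cell marker was called, but the dnBrg1 samples were spread widely. Differences of single mesenchyme markers ran from -0.47 to 1.85, so that the missing calls do not show an even content of mesenchyme. No marker was at 0, since intensities never are, and the part of these tissues in the results was not tested. The signal of the 3′ probe sets over that of the 5′ probe sets of the array's Gapdh and β-actin controls also separated the genotypes. The mean of both differences lay between 0.592 and 0.649 in dnBrg1 lenses, against 1.43 (replicate 3) to 2.66 (replicate 2) in wild type lenses (two-sided exact permutation test over 70 assignments, p = 0.029, the smallest possible). By their descriptions dnBrg1 replicates 3 and 4 were total RNA, whereas polysome-bound RNA is named for the other dnBrg1 samples and for every wild type sample. The sources conflict on this, since the labelled molecule is total RNA for all 8 samples and the methods also name total RNA.

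Complex I genes changed in both directions. Of the 74 probe sets, 18 were higher and 27 were lower in dnBrg1 lenses and 29 were not called, which is 60.8% called. Over all probe sets 40.8% were called (19.8% higher, 21.0% lower). Nduf probe sets are bright, with a median level of 11.6. Among all bright probe sets, those with a mean at or above the median of all probe sets, 53.5% were called. That class reaches down to 7.69, so it is not matched to the level of the Nduf probe sets. Counting each gene once, by the probe set with the highest mean over the 8 samples (its own probe set), 8 of 39 genes were higher, 15 were lower and 16 were not called, or 59.0%. Over all genes 40.7% were called by the same count (17.5% higher, 23.3% lower), and over genes with a bright own probe set 52.6%. Averaging the levels within each gene instead gave 11 higher and 15 lower Nduf genes. The excess of lower genes was smaller by that count, so its size depended on the choice of probe set. The median difference was -0.11 for the 74 probe sets and -0.08 for all probe sets, but 0.02 for the 39 genes and -0.11 for all genes by own probe set. By the methods' t-test without adjustment, at the same threshold, 19 Nduf probe sets were higher and 33 lower, with 46.9% of all probe sets called, and after Benjamini-Hochberg adjustment 18 were higher and 27 lower. Levels of the genotypes did not overlap for 45 of the 74 probe sets (17 above and 28 below wild type), against 40.1% of all probe sets. Among the 11313 bright probe sets of the array, 3166 lay above and 2868 below wild type without overlap.

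**Figure D1:**
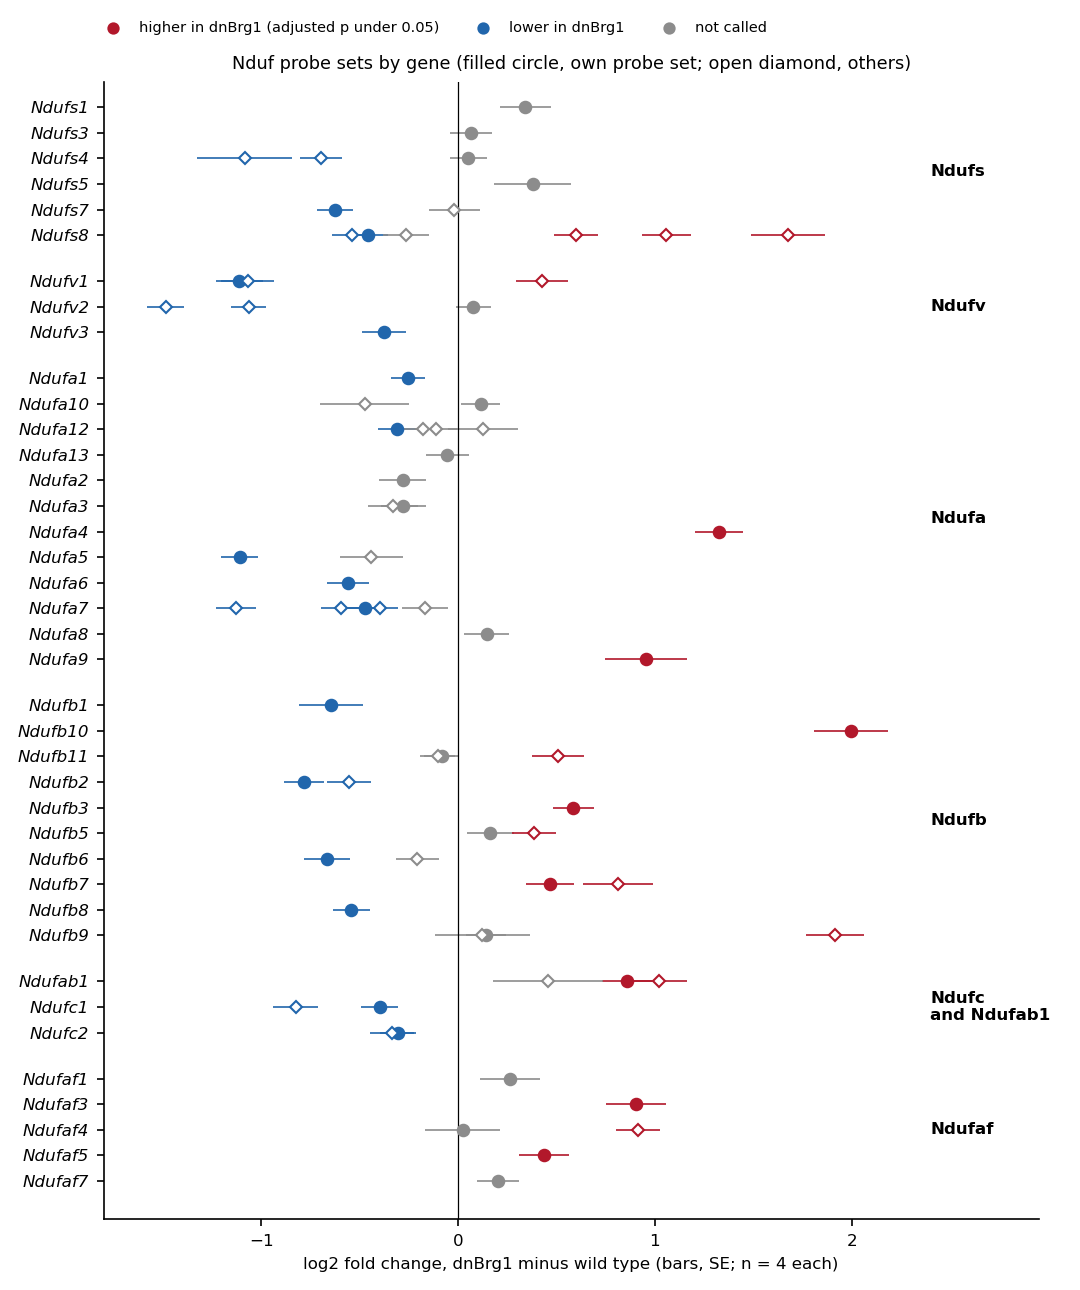
Log2 fold change (dnBrg1 minus wild type, bars show SE, n = 4 samples each) of the 74 Nduf probe sets, 1 row per gene, ordered by group. Filled circles are each gene's own probe set and open diamonds its other probe sets. The Ndufaf row group holds no lower call, and Ndufs8 and Ndufv1 have calls on both sides of 0.

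The calls have a limit that touches every one of them. When the 3′ minus 5′ difference of the controls was put into the model as a covariate, 2 Nduf probe sets were called higher and 7 lower, with 6.37% of all probe sets called. The covariate differs between genotypes on every array and raised the median SE to 0.229, against 0.113 without it, so that genotype and control difference cannot be fully told apart. It hardly varied among dnBrg1 samples (SD 0.031, against 0.52 in wild type), so its effect was estimated almost only from the wild type samples. The dnBrg1 values lie outside the wild type range, so every difference given with the covariate is an extrapolation. Among the 18 probe sets called higher, 3 kept at least 2/3 of their size and 4 changed sign. Among the 27 called lower, 20 kept at least 2/3 of their size and 1 changed sign. Among all probe sets the same holds for 1991 of 4484 called higher and 2370 of 4745 called lower. The probe sets that stayed called were Ndufb9 1452184_at among the increases, and Ndufv2 1452692_a_at and 1438159_x_at, Ndufa5 1417285_a_at, Ndufa6, Ndufa7 1455749_x_at and Ndufc1 1416285_at among the decreases. Ndufs1 (higher) and Ndufa5 1417286_at (lower), not called without the covariate, were called with it.

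**Figure D2:**
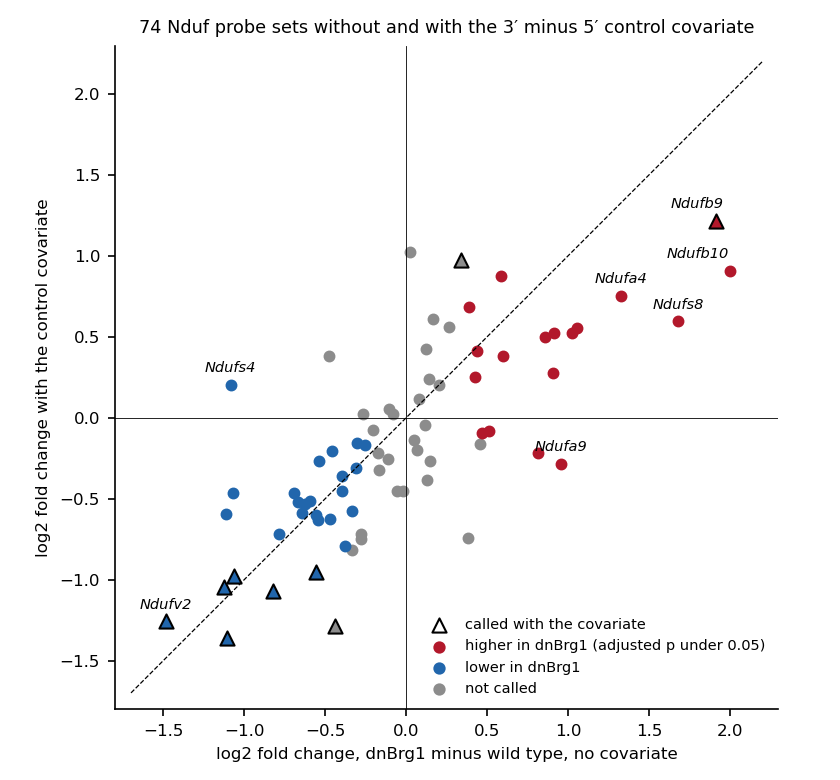
Log2 fold change of the 74 Nduf probe sets without (x axis) and with (y axis) the 3′ minus 5′ control difference as a covariate; colours give the call without it, triangles a call with it, and the dashed line marks equal values. Most decreases lie near the dashed line, most increases lie below it, and Ndufa9 and Ndufs4 1418117_at lie across 0.

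The largest increase was that of Ndufb10, an accessory subunit of the outer end of the proton-pumping arm. Its 1428322_a_at levels were 12.66, 12.54, 12.81 and 12.58 in dnBrg1 lenses and 10.75, 10.25, 11.17 and 10.43 in wild type lenses, a 3.99-fold difference (1.998 ± 0.19, adjusted p = 5.9e-05). Every dnBrg1 sample was above every wild type sample, and wild type replicate 3 was the wild type sample nearest to them. With the control covariate the difference was 0.91 (adjusted p = 0.052).

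The largest decrease on a gene's own probe set was that of Ndufv1, the core subunit that binds NADH and the flavin, closely followed by that of Ndufa5, an accessory subunit of the matrix arm. Ndufa5 1417285_a_at had levels of 12.10, 12.04, 12.15 and 12.16 in dnBrg1 lenses and 13.28, 13.08, 13.29 and 13.24 in wild type lenses, 2.16-fold lower (-1.11 ± 0.09, adjusted p = 3.7e-05). The groups were far apart, and the difference with the control covariate was -1.36 (adjusted p = 0.013). Its second probe set, 1417286_at, differed by -0.44 ± 0.16, adjusted p = 0.052, with wild type replicate 2 at 11.07 inside the dnBrg1 range, and became called without that sample (-0.59, adjusted p = 0.0035) and with the covariate (-1.29, adjusted p = 0.024).

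The promoters of 5 genes are printed here: those of Ndufb10 and Ndufa5 for the changes above, that of Ndufs8 for its opposite calls (given further on), and those of Ndufb7, higher on both probe sets, and Ndufaf4, higher on 1 of its 2, for the motifs they hold. Each stretch is the 250 bases before the RefSeq start (GRCm38.p6), in the direction of the gene, at chr17:24724424-24724673 (- strand) for Ndufb10, chr6:24527691-24527940 (- strand) for Ndufa5, chr19:3912775-3913024 (- strand) for Ndufs8, chr8:83566508-83566757 (+ strand) for Ndufb7 and chr4:24897833-24898082 (+ strand) for Ndufaf4. Capitals mark a match to GCGCNTGCG (nuclear respiratory factor 1, NRF1) in Ndufb10, Ndufa5 and Ndufaf4 (in the last, overlapping matches on both strands) and to CCGGAAG (the ETS family, to which GABPA belongs) in Ndufb7, on either strand.
Ndufb10: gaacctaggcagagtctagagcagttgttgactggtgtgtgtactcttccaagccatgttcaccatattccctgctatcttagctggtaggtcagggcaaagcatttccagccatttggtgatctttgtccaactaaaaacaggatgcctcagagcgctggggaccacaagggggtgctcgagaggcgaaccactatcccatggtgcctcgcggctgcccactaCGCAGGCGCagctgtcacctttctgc
Ndufa5: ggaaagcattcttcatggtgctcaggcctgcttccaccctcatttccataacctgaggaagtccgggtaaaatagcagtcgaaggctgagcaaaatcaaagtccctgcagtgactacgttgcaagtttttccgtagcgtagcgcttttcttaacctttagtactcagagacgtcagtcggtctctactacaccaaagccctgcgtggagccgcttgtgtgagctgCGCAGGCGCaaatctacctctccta
Ndufs8: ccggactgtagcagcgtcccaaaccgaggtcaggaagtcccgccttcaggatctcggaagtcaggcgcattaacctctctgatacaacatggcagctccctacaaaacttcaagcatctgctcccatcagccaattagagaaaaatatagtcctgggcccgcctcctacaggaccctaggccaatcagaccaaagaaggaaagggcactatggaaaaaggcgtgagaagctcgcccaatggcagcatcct
Ndufb7: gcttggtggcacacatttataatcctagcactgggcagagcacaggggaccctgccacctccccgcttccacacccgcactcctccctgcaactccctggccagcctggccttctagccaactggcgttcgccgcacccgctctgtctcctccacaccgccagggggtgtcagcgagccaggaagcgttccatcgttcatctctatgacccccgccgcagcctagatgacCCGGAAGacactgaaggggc
Ndufaf4: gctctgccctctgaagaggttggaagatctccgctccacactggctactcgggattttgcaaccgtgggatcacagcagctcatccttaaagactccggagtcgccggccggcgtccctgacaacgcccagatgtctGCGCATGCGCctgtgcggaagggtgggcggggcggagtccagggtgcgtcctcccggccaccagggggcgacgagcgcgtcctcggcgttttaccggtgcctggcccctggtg

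NRF1, GABPA and YY1 are regulators of many nuclear genes for mitochondria. RefSeq promoters (250 bases before to 50 after a start) matched 36 of the 39 genes. The NRF1 letters stood in 8 of the 36 (22.2%; Ndufa5, Ndufa6, Ndufa8, Ndufa12, Ndufaf4, Ndufaf5, Ndufb10 and Ndufs5), against 7.12% of all 27025 genes with a promoter. The ETS letters stood in 5 (13.9%; Ndufaf1, Ndufb6, Ndufb7, Ndufs3 and Ndufs8, the last outside the stretch printed), against 9.93%. The letters AAGATGGC of YY1 stood in 6 (16.7%; Ndufa3, Ndufa9, Ndufb8, Ndufc1, Ndufs4 and Ndufs7), against 3.19%. GGGCGG, read by SP1, stood in 18 (50.0%), against 38.2%, and TATAAA on the gene's strand in 2 (5.56%), against 9.77%. The SP1, NRF1, ETS and YY1 letters were sought on both strands. Genes called higher and lower both held them: of 8 higher and 15 lower genes, 2 and 3 held the NRF1 letters, 1 and 2 the ETS letters and 1 and 3 the YY1 letters. A match describes the sequence only. Median GC content was 59.5% in promoters of higher genes and 59.3% in those of lower genes, with 52.7% over all genes.

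The core subunits carry the flavin and the iron-sulfur clusters, and 6 nuclear core genes were analysed. By own probe set none was higher, 3 were lower (Ndufv1, Ndufs7 and Ndufs8) and 3 were not called (Ndufs1, Ndufs3 and Ndufv2). The 50.0% called is near the 52.6% over genes with a bright own probe set, with 40.7% over all genes (17.5% higher, 23.3% lower). The count depends on the choice of probe set, since further probe sets of Ndufs7, Ndufs8, Ndufv1 and Ndufv2 differed in call (below). Ndufs7, which carries the cluster next to the quinone, had levels of 12.84, 12.69, 12.86 and 12.88 in dnBrg1 lenses and 13.48, 13.46, 13.36 and 13.46 in wild type lenses on 1424313_a_at, 1.54-fold lower (-0.62 ± 0.09, adjusted p = 0.00064). Its second probe set 1451312_at overlapped between genotypes (difference -0.02 ± 0.13, adjusted p = 0.92). Ndufs3, a core subunit of the quinone-binding part, had levels from 12.72 to 12.90 in dnBrg1 and 12.59 to 12.89 in wild type lenses and differed by 0.07 ± 0.11, adjusted p = 0.64. Ndufs1, the largest subunit of the NADH-binding part, had levels of 10.91, 10.92, 10.96 and 10.79 in dnBrg1 and 10.53, 10.80, 10.25 and 10.64 in wild type lenses. It missed the threshold at 0.34 ± 0.13, adjusted p = 0.059, with wild type replicate 2 inside the dnBrg1 range; without that sample the difference was 0.42 (adjusted p = 0.024), and with the control covariate 0.97 (adjusted p = 0.030).

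Ndufs8, a core subunit that carries iron-sulfur clusters between the NADH and quinone sites, had the widest disagreement between probe sets. Probe set 1423908_at had levels of 10.48, 10.24, 10.49 and 10.42 in dnBrg1 lenses and 8.96, 8.20, 9.12 and 8.63 in wild type lenses, 3.2-fold higher (1.68 ± 0.19, adjusted p = 0.00014). Probe sets 1423907_a_at (1.06 ± 0.12, adjusted p = 0.00019) and 1434213_x_at (0.60 ± 0.11, adjusted p = 0.0021) were also higher. The own probe set 1455283_x_at pointed the other way, with levels of 12.11, 11.93, 12.18 and 12.02 in dnBrg1 lenses and 12.58, 12.57, 12.33 and 12.59 in wild type lenses (-0.46 ± 0.11, adjusted p = 0.0072), as did 1434579_x_at (-0.54 ± 0.10, adjusted p = 0.0030). In all 5 the genotypes did not overlap, 3 with dnBrg1 above and 2 with dnBrg1 below. The dimmest, 1434212_at, overlapped (difference -0.26 ± 0.12, adjusted p = 0.10). A direction for Ndufs8 as a gene was therefore not given by these data, and with the control covariate none of its probe sets was called, the lowest adjusted p being 0.16.

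Ndufv1 likewise had calls on both sides of 0. Its own probe set 1456015_x_at had levels of 11.14, 11.02, 11.23 and 11.11 in dnBrg1 lenses and 12.24, 12.44, 11.97 and 12.30 in wild type lenses, 2.16-fold lower (-1.11 ± 0.12, adjusted p = 0.00012), and 1415966_a_at differed by -1.07 ± 0.14, adjusted p = 0.00028. Probe set 1415967_at was higher (0.43 ± 0.13, adjusted p = 0.027), with wild type replicate 1 at 10.97 inside the dnBrg1 range of 10.95 to 11.28. That increase was less firm than the decreases, since its call was lost at adjusted p = 0.052 to 0.075 without dnBrg1 replicate 1, 3 or 4 or wild type replicate 2 or 4. With the control covariate the own probe set differed by -0.60 (adjusted p = 0.13).

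Ndufv2, a core subunit with an iron-sulfur cluster beside the flavin, had probe sets that fell and one that was not called. Probe set 1452692_a_at had levels of 10.94, 10.84, 10.92 and 10.83 in dnBrg1 lenses and 12.44, 12.45, 12.22 and 12.37 in wild type lenses, 2.8-fold lower (-1.49 ± 0.10, adjusted p = 1.4e-05), the largest decrease of the 74. Probe set 1438159_x_at was 2.09-fold lower (-1.06 ± 0.09, adjusted p = 3.6e-05). The own probe set 1428179_at had 12.15 ± 0.07 in dnBrg1 and 12.07 ± 0.04 in wild type lenses (0.08 ± 0.09, adjusted p = 0.51), and its groups overlapped. Both decreases stayed called with the control covariate, at -1.26 (adjusted p = 0.017) and -0.98 (adjusted p = 0.030).

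**Figure D3:**
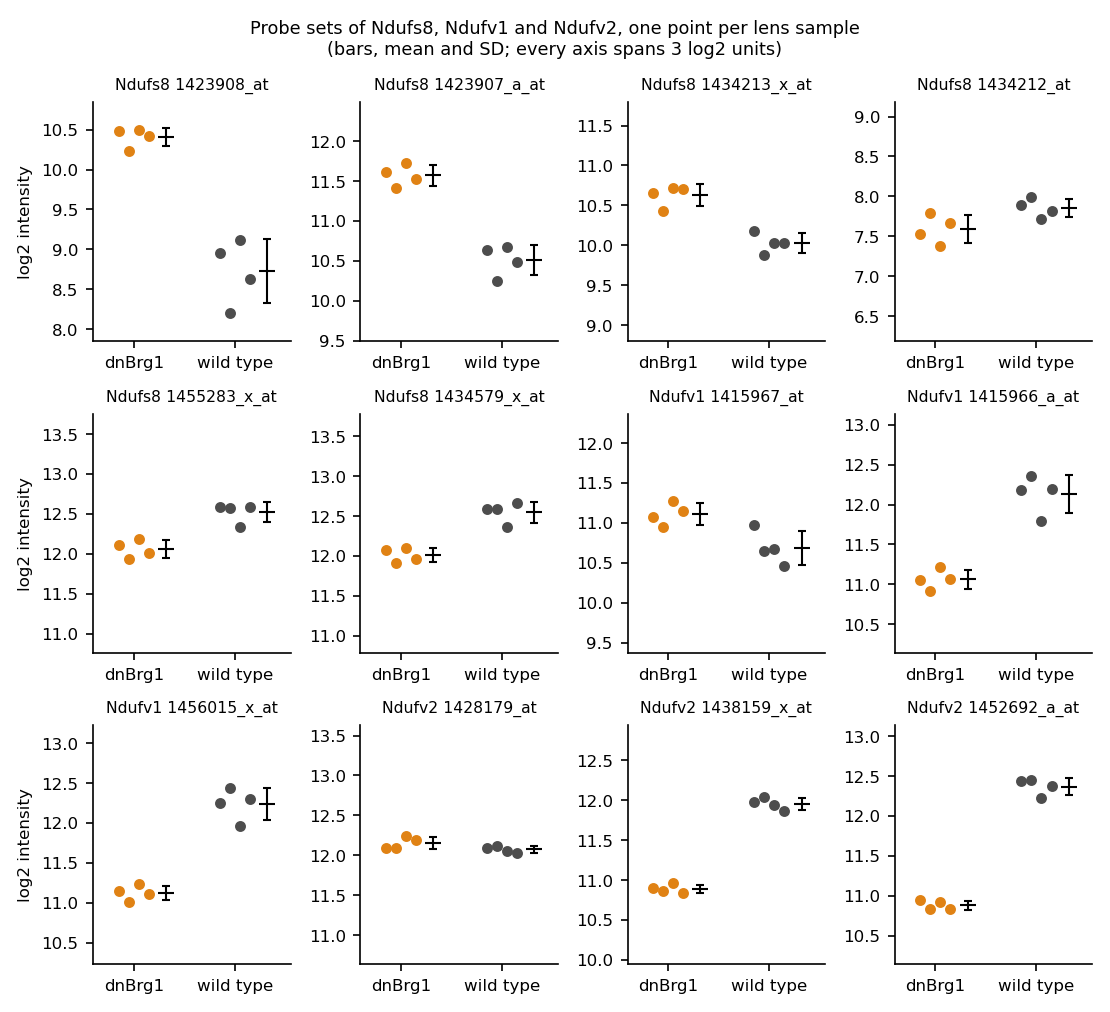
Log2 intensity (y axis, 3 log2 units in every panel) in each of 4 dnBrg1 and 4 wild type lens samples for the 6 Ndufs8, 3 Ndufv1 and 3 Ndufv2 probe sets. Points run from replicate 1 to 4 and bars show mean and SD. For Ndufs8 dnBrg1 lies above wild type in 3 panels and below without overlap in 2, and Ndufv2 1428179_at shows overlapping groups beside 2 probe sets that fell.

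Among the accessory Ndufs and Ndufv genes, the own probe set of Ndufs4, whose loss in mice models Leigh syndrome, was not called (0.05 ± 0.09, adjusted p = 0.69). Its other probe sets fell. Probe set 1438166_x_at had levels of 10.21, 10.00, 10.16 and 10.11 in dnBrg1 and 10.84, 10.81, 10.63 and 10.98 in wild type lenses (-0.69 ± 0.11, adjusted p = 0.00079). The dimmer 1418117_at had 7.25, 6.82, 7.45 and 7.19 in dnBrg1 and 8.28, 8.72, 7.56 and 8.49 in wild type lenses (-1.08 ± 0.24, adjusted p = 0.0061), with wild type replicate 3 only just above the dnBrg1 samples, and its difference was 0.21 (adjusted p = 0.79) with the control covariate. Ndufv3 fell less, with 12.34 ± 0.08 in dnBrg1 and 12.72 ± 0.17 in wild type lenses (-0.38 ± 0.11, adjusted p = 0.024), and its call was lost at adjusted p = 0.055 to 0.064 without dnBrg1 replicate 2 or 4 or wild type replicate 1 or 4. Ndufs5 was not called (0.38 ± 0.20, adjusted p = 0.15), though it was without wild type replicate 3 (0.51, adjusted p = 0.0497).

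Of the 12 Ndufa genes, 2 were higher, 5 were lower and 5 were not called. The 58.3% called is near the 52.6% over genes with a bright own probe set, with 40.7% over all genes (17.5% higher, 23.3% lower). Ndufa4 and Ndufa9 were the increases. Ndufa4, found with complex I but now counted as a subunit of complex IV, had levels of 12.06, 11.97, 11.93 and 12.02 in dnBrg1 lenses and 10.68, 10.44, 10.95 and 10.60 in wild type lenses, 2.51-fold higher (1.33 ± 0.12, adjusted p = 5.2e-05). All dnBrg1 samples lay well above the highest wild type sample, and the difference with the control covariate was 0.76 (adjusted p = 0.056). Ndufa9, an accessory subunit beside the quinone site, had levels of 12.13, 12.23, 12.45 and 12.43 in dnBrg1 lenses and 11.61, 10.79, 11.82 and 11.21 in wild type lenses (0.95 ± 0.21, adjusted p = 0.0055). Its wild type samples were spread widely and followed the order of the control difference, lowest in replicate 2 and highest in replicate 3, and with the covariate the difference was -0.29 (adjusted p = 0.51).

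The decreases among Ndufa genes were Ndufa5 (above), Ndufa6, Ndufa7, Ndufa12 and Ndufa1. Ndufa6, a small protein of the LYR family at the matrix arm, had levels of 11.50, 11.43, 11.56 and 11.49 in dnBrg1 lenses and 12.18, 11.87, 12.18 and 11.98 in wild type lenses (-0.56 ± 0.11, adjusted p = 0.0025), and -0.95 (adjusted p = 0.031) with the control covariate. Ndufa7 had 5 probe sets, and all 5 had a lower mean in dnBrg1 lenses. The own probe set 1450818_a_at differed by -0.47 ± 0.10, adjusted p = 0.0056, and 3 others, 1428360_x_at, 1422976_x_at and 1455749_x_at, were also called. The strongest, 1455749_x_at, had levels of 9.18, 9.24, 9.07 and 9.33 in dnBrg1 lenses and 10.38, 10.28, 10.23 and 10.44 in wild type lenses (-1.13 ± 0.10, adjusted p = 4.8e-05), while 1436567_a_at overlapped (-0.17 ± 0.12, adjusted p = 0.28). Ndufa7 was thus the gene with the most probe sets pointing one way.

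Ndufa12, which in human cells replaces an assembly factor late in assembly, differed by -0.31 ± 0.10, adjusted p = 0.028 on 1418814_s_at, and lost the call at adjusted p = 0.068 to 0.080 without dnBrg1 replicate 2 or 4 or wild type replicate 1. Of its other probe sets, 1433513_x_at and 1455806_x_at differed by -0.18 and -0.11 without a call, and 1425919_at (levels from 3.90 to 4.60) lay in the range of the 15 bacterial control probe sets (2.50 to 5.31), so that it measured little. Ndufa1, an X-linked subunit of the membrane arm, had levels of 13.62, 13.63, 13.61 and 13.60 in dnBrg1 lenses and 13.93, 13.88, 13.79 and 13.87 in wild type lenses (-0.25 ± 0.09, adjusted p = 0.041). The groups did not overlap, but the call did not survive the loss of most single samples (adjusted p = 0.065 to 0.096 without dnBrg1 replicate 1, 2, 3 or 4 or wild type replicate 1, 2 or 4). Ndufa2, Ndufa3, Ndufa8, Ndufa10 and Ndufa13 (also known as GRIM-19) were not called on any probe set, with differences from -0.47 (Ndufa10 1418068_at) to 0.15 (Ndufa8). Without wild type replicate 2, Ndufa2 (-0.38, adjusted p = 0.019) and Ndufa3 (-0.35 and -0.43, adjusted p = 0.033 and 0.014) were called lower, and without wild type replicate 1 so was Ndufa10 1418068_at (-0.64, adjusted p = 0.040).

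**Figure D4:**
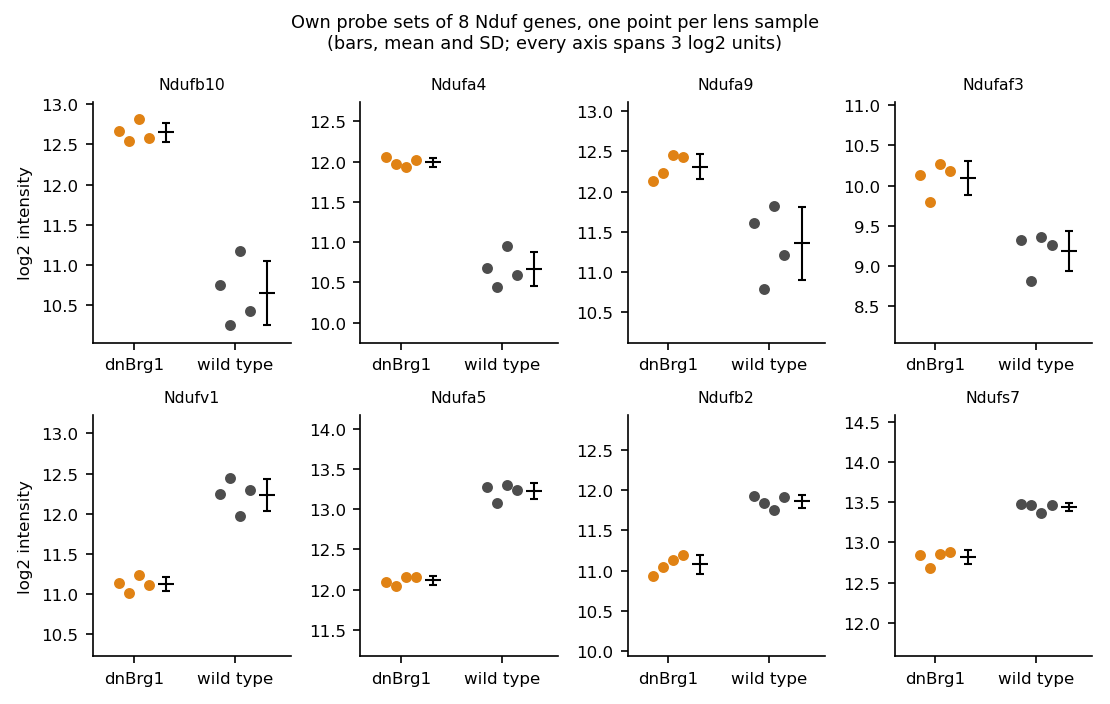
Log2 intensity (y axis, 3 log2 units in every panel) of the own probe sets of 8 Nduf genes in each of 4 dnBrg1 and 4 wild type lens samples. Points run from replicate 1 to 4 and bars show mean and SD. The genotypes do not overlap in any panel, with dnBrg1 above wild type in the top row and below it in the bottom row.

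The Ndufb genes code for accessory subunits of the membrane arm. Of 10 genes, 3 were higher (Ndufb10, Ndufb3 and Ndufb7), 4 were lower (Ndufb2, Ndufb6, Ndufb1 and Ndufb8) and 3 were not called (Ndufb5, Ndufb9 and Ndufb11). By the same count 40.7% of all genes were called (17.5% higher, 23.3% lower), and 52.6% of genes with a bright own probe set. The share of these 10 genes was not tested against those shares. Ndufb7, which like Ndufb10 faces the intermembrane space, was higher on both probe sets. On 1448331_at its levels were 12.17, 11.95, 12.26 and 12.22 in dnBrg1 lenses and 11.38, 10.91, 11.81 and 11.24 in wild type lenses (0.81 ± 0.18, adjusted p = 0.0057), and on the own probe set 1416417_a_at the difference was 0.47 ± 0.12, adjusted p = 0.014. With the control covariate these were -0.22 (adjusted p = 0.60) and -0.09 (adjusted p = 0.83). Ndufb3 had 12.46 ± 0.09 in dnBrg1 and 11.88 ± 0.13 in wild type lenses (0.59 ± 0.10, adjusted p = 0.0018) and was one of the increases that kept its size with the covariate, 0.87 (adjusted p = 0.050).

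The strongest Ndufb decrease was that of Ndufb2, with levels of 10.93, 11.04, 11.13 and 11.20 in dnBrg1 lenses and 11.93, 11.84, 11.76 and 11.91 in wild type lenses (-0.78 ± 0.10, adjusted p = 0.00028). Its other probe set 1416834_x_at fell too (-0.55 ± 0.11, adjusted p = 0.0033). Ndufb6 differed by -0.67 ± 0.12, adjusted p = 0.0016, Ndufb1 by -0.65 ± 0.16, adjusted p = 0.012 and Ndufb8 by -0.54 ± 0.09, adjusted p = 0.0015, each without overlap of the genotypes. The second probe set of Ndufb6, 1434057_at, was not called (-0.21 ± 0.11, adjusted p = 0.16).

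Ndufb9, a LYR protein of the membrane arm, had 1 probe set with the second largest increase of the 74. Probe set 1452184_at had levels of 11.96, 11.84, 12.14 and 12.16 in dnBrg1 lenses and 10.17, 9.75, 10.37 and 10.14 in wild type lenses, 3.77-fold higher (1.92 ± 0.15, adjusted p = 2.4e-05), and 1.22 (adjusted p = 0.029) with the control covariate. The own probe set 1436803_a_at had 11.75 ± 0.13 in dnBrg1 and 11.61 ± 0.06 in wild type lenses (0.14 ± 0.10, adjusted p = 0.29), with overlapping groups, and 1455934_at (3.38 to 4.47) lay in the range of the bacterial controls. For Ndufb5 the own probe set was not called (0.16 ± 0.12, adjusted p = 0.30) and 1448589_at was higher (0.39 ± 0.11, adjusted p = 0.020), a call lost at adjusted p = 0.052 without dnBrg1 replicate 1 or wild type replicate 4. The X-linked Ndufb11 differed by -0.08 and -0.10 on 1416056_a_at and 1455911_x_at without a call, and 1416057_at was higher (0.51 ± 0.13, adjusted p = 0.013), but -0.08 (adjusted p = 0.87) with the covariate.

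Ndufab1, the mitochondrial acyl carrier protein, which serves both complex I and fatty acid and lipoic acid synthesis, was higher. Its own probe set 1428160_at had levels of 12.56, 12.31, 12.51 and 12.53 in dnBrg1 lenses and 11.90, 11.47, 11.68 and 11.43 in wild type lenses, 1.81-fold higher (0.86 ± 0.13, adjusted p = 0.00068). Probe set 1428159_s_at agreed in direction (1.02 ± 0.14, adjusted p = 0.00039), and the dim 1435934_at overlapped (0.46 ± 0.28, adjusted p = 0.22). With the control covariate the own probe set differed by 0.50 (adjusted p = 0.32). Ndufc1 and Ndufc2, small membrane arm subunits, were lower on all their probe sets. Ndufc1 1416285_at had levels of 12.11, 11.91, 12.20 and 12.27 in dnBrg1 lenses and 13.10, 12.83, 12.99 and 12.88 in wild type lenses (-0.82 ± 0.11, adjusted p = 0.00044), and its own probe set 1448284_a_at differed by -0.40 ± 0.09, adjusted p = 0.0082. The Ndufc2 decreases were smaller, -0.30 ± 0.09, adjusted p = 0.025 on the own probe set 1455036_s_at and -0.33 ± 0.11, adjusted p = 0.039 on 1416366_at. They were lost at adjusted p = 0.052 to 0.070 without dnBrg1 replicate 1, 2 or 4 or wild type replicate 1 or 4 and at adjusted p = 0.058 to 0.10 without dnBrg1 replicate 2, 3 or 4 or wild type replicate 1, 3 or 4.

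The Ndufaf assembly factors held no lower call. Of 5 genes 2 were higher and 3 were not called, and of their 6 probe sets 3 were higher. The 40.0% of genes called is near the 40.7% over all genes, of which 17.5% were higher and 23.3% lower. Ndufaf3, which works with Ndufaf4 on the quinone-binding part, had levels of 10.13, 9.80, 10.27 and 10.19 in dnBrg1 lenses and 9.32, 8.82, 9.36 and 9.26 in wild type lenses, 1.87-fold higher (0.90 ± 0.15, adjusted p = 0.0014). Ndufaf5, an enzyme that in human cells modifies Ndufs7, differed by 0.44 ± 0.13, adjusted p = 0.021, a call lost at adjusted p = 0.053 to 0.055 without dnBrg1 replicate 3 or 4 or wild type replicate 1 or 4. Ndufaf4 1435333_at was higher (0.91 ± 0.11, adjusted p = 0.00024), with levels of 9.76, 9.70, 9.84 and 9.70 in dnBrg1 and 8.97, 8.73, 9.00 and 8.65 in wild type lenses. Its own probe set 1427997_at overlapped, with 9.36 ± 0.12 in dnBrg1 and 9.34 ± 0.41 in wild type lenses (0.02 ± 0.19, adjusted p = 0.93). Ndufaf1 (0.26 ± 0.15, adjusted p = 0.20) and Ndufaf7, a methyltransferase (0.20 ± 0.11, adjusted p = 0.16), were not called. No Ndufaf probe set was called with the control covariate, all 6 differences being positive. That some assembly factors were higher while more subunits were lower was not tested as a difference between groups.

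The probe sets of one gene did not always share a call. Of 20 Nduf genes with several probe sets, 8 had calls in 1 direction on more than 1 probe set, 2 had opposite calls (10.0%; Ndufs8 and Ndufv1), 8 had a single call and 2 had none. Over all genes with several probe sets 13.8% had opposite calls. Of genes with calls on more than 1 probe set, 20.0% of Nduf genes and 41.7% of all genes had opposite ones. The ending of an Affymetrix probe set name tells how specific its probes are: _at stands for a single transcript, _a_at for several transcripts of a gene, and _s_at and _x_at for probes shared with other sequences. In a split by ending, chosen after the values were seen, the 34 Nduf probe sets ending in _at alone had 12 higher and 5 lower calls and a median of 0.13, and the 40 with a longer ending had 6 higher and 22 lower calls and a median of -0.31. Over all probe sets the counts were 2806 higher and 3123 lower of 15605 for _at, and 1678 higher and 1622 lower of 7021 for longer endings. Bright probe sets alone leaned the other way, though little for longer endings. They had 1964 higher and 1724 lower of 7132 for _at, and 1172 higher and 1192 lower of 4181 for longer endings. For _x_at alone, Nduf probe sets had 1 higher and 9 lower calls of 14, and all probe sets 147 higher and 543 lower of 1512. For _a_at, Nduf probe sets had 4 higher and 11 lower calls of 20 (median -0.31), whereas all probe sets had 1203 higher and 719 lower of 4040 (median 0.07). The files give no positions of probe sets within transcripts, so that their distance from the 3′ end was not compared.

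The wild type samples differ among themselves in the control difference, which gives a view within 1 genotype. Wild type replicate 3, with the lowest control difference, was the wild type sample nearest to the dnBrg1 mean for 10 of 18 higher and 16 of 27 lower Nduf probe sets (55.6% and 59.3%). Over all called probe sets the shares were 54.9% and 46.2%, and over the bright ones 57.7% and 51.5%. Wild type replicate 2, with the highest, was the farthest for 12 of the 18 higher (66.7%) and 6 of the 27 lower Nduf probe sets (22.2%). The shares were 50.0% and 41.4% of all called probe sets and 53.6% and 43.8% of the bright ones.

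The probe sets that name an Nduf gene together with another gene were 1 higher, 3 lower and 4 not called. That of Ndufs5 and its pseudogene (1416495_s_at) was higher (0.91, adjusted p = 0.0048). Those of Ndufa13 with Yjefn3 (-1.67, adjusted p = 8.2e-05), Ndufab1 with its pseudogene (-0.36, adjusted p = 0.042) and Ndufb2 with Adck2 (-0.32, adjusted p = 0.035) were called lower, but the levels of the last (4.74 to 5.29) lay in the range of the bacterial controls in every sample, so that it measured little, and those of Ndufa13 with Yjefn3 did so in dnBrg1 lenses (4.54 to 5.24). The Ndufab1 probe set shared with a pseudogene thus ran against the 2 called ones of Ndufab1 alone. The probe sets of Ndufa11, Ndufs6 and Ndufb4 with their near-identical copies were not called, with differences from -0.32 to -0.10.

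Complex I assembly factors without an Nduf symbol also went both ways, with 3 of 9 higher and 2 lower (55.6% called). Over all genes 40.7% were called (17.5% higher, 23.3% lower), and over genes with a bright own probe set 52.6%. Tmem186 (0.92, adjusted p = 0.00033), Sfxn4 (0.70, adjusted p = 0.011) and Ecsit (0.54, adjusted p = 0.034) rose, and Timmdc1, in human cells a factor of the membrane arm (-1.49, adjusted p = 3.9e-05), and Aifm1 (-0.61, adjusted p = 0.0014) fell. None of these 5 calls held with the control covariate, where Sfxn4 (-0.08, adjusted p = 0.91) and Ecsit (-0.09, adjusted p = 0.92) turned sign, Tmem186 (0.51, adjusted p = 0.24) and Aifm1 (-0.33, adjusted p = 0.39) shrank and Timmdc1 differed by -1.04, adjusted p = 0.055. In the rest of the chain, higher and lower genes numbered 2 and 0 of 7 for complex II, 6 and 4 of 13 for complex III, 3 and 4 of 20 for complex IV and 8 and 4 of 15 for complex V. The shares called were 28.6%, 76.9%, 35.0% and 80.0%, those of complexes II and IV being below the share over all genes. Uqcrc1 of complex III (2.19, adjusted p = 9.7e-06) rose more than any of the 74 Nduf probe sets, and Bcs1l, which inserts the iron-sulfur protein of complex III, fell (-1.59, adjusted p = 2.9e-05). Both stayed called with the covariate. Of 13 genes of electron carriers 7 were higher and 1 lower (61.5% called). Among the higher were Etfb (2.24, adjusted p = 0.00026) and Etfdh (1.79, adjusted p = 3.0e-05), which feed electrons of fatty acid oxidation into ubiquinone. With the covariate Etfdh stayed called (1.26, adjusted p = 0.047) and Etfb did not (0.42, adjusted p = 0.24), its wild type levels running from 10.46 in replicate 2 to 12.00 in replicate 3, the order of the control difference. Genes for building iron-sulfur clusters, the cofactors of the core subunits, were 4 higher and 3 lower of 8 (87.5% called). Isca2 was up (0.91, adjusted p = 0.00014) and Nfs1, the cysteine desulfurase, down (-0.91, adjusted p = 0.0025). With the covariate Isca2 stayed called (1.05, adjusted p = 0.038) and Nfs1 did not (-0.15, adjusted p = 0.81).

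Among 14 regulators of nuclear genes for mitochondria, 1 was higher and 4 were lower (35.7% called, below the 40.7% over all genes). Polrmt, the mitochondrial RNA polymerase, fell most (-2.23, adjusted p = 1.6e-05), followed by the coactivator Ppargc1a (-1.32, adjusted p = 9.0e-05), its partner Esrra (-1.28, adjusted p = 0.00026) and Tfb1m (-0.79, adjusted p = 0.0057), while the mitochondrial transcription factor Tfb2m rose (1.22, adjusted p = 0.00013). The factors whose letters were sought in the promoters were not called: Nrf1 (0.14, adjusted p = 0.50), Gabpa (0.27, adjusted p = 0.11), Yy1 (-0.03, adjusted p = 0.79) and Sp1 (0.05, adjusted p = 0.87). With the control covariate 2 of these regulators were still lower by limma, Polrmt and Esrra, and Tfb1m turned sign (0.12, adjusted p = 0.83).

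**Figure D5:**
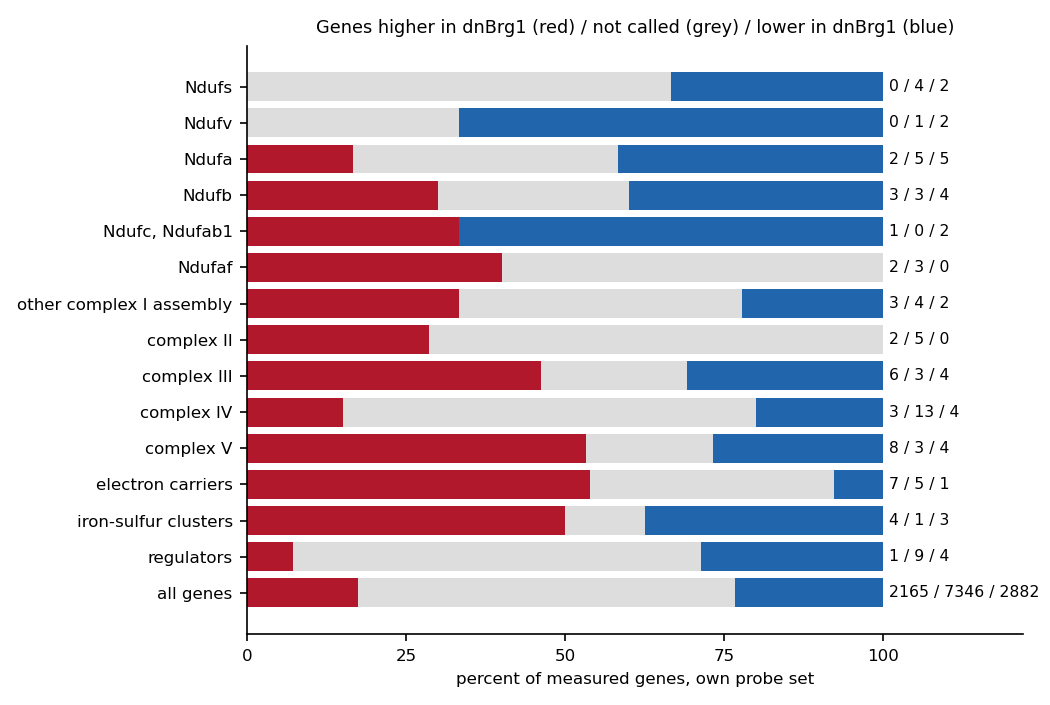
Share of measured genes (x axis, percent of genes by own probe set) called higher in dnBrg1, not called, or called lower, for the 6 Nduf groups, the lists of related genes and all 12393 genes; numbers at the right are the counts of genes in the same order. By own probe set Ndufaf (5 genes) and complex II (7) have no lower gene, where 23.3% of all genes were lower. Ndufs (6) and Ndufv (3) have no higher gene, where 17.5% of all genes were higher, but 3 of 14 Ndufs and 1 of 7 Ndufv probe sets were higher.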

How the data were processed

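RNA of 4 dnBrg1 and 4 wild type samples of whole lenses was measured on Affymetrix Mouse Genome GeneChips, after NuGEN Ovation amplification from 50 ng of RNA. The authors processed the scans with robust multichip average (RMA; version not given in the sources used here), which subtracts background, makes the arrays' distributions alike and summarises each probe set, so that a shift of most transcripts in one direction is not preserved. What was deposited are linear-scale intensities, of which log2 was taken here.

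Groups came from the labelled genotype. After 64 array controls were set aside from 22690 probe sets, the 22626 others entered a linear model for the difference between dnBrg1 and wild type (limma 3.58.1, functions lmFit and eBayes, R 4.3.3), and p-values were adjusted over all of them by Benjamini-Hochberg. No source says whether the 4 samples of a genotype came from separate litters, so p-values measure only the spread between these samples, which may in part be technical. Precision is limited by how few arrays there are. The members and the lists were chosen with earlier results of these data known. The text names core subunits, the X-linked and moved genes, the largest changes of each group and every gene with several probe sets, and accounts for the other members by their values. Symbols were updated through gene numbers to RefSeq (GRCm38.p6), and promoters were taken from RefSeq. Alternatives covered scaling, adding 16 before log2, leaving out dim probe sets, variance models, a replicate block, single samples left out, the described RNA, array control and sex covariates, thresholds and the methods' t-test. For the gene counts, levels were also averaged within each gene. The study's second test (SAM) was not run. The model code was checked on simulated data with known changes before use.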

Additional observations from a re-analysis of the deposited data

Results flagged for a closer look

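Of 148 groups of 4 samples (74 probe sets in 2 genotypes), 6 held a sample whose gap to the nearest of the others was large for the group's range (Dixon's critical value for 4 samples); chance flags about 1 group in 20. Wild type replicate 3 stood apart for Ndufs7 1424313_a_at (13.36, the others 13.46 to 13.48), for Ndufs8 1455283_x_at (12.33, the others 12.58 to 12.59) and for Ndufa12 1425919_at (4.48, the others 3.99 to 4.06, within the range of the bacterial controls). In the Ndufs7 and Ndufs8 probe sets that sample was the wild type sample nearest to the dnBrg1 samples. Wild type replicate 2 was low for Ndufa3 1428464_at (12.18, the others 12.55 to 12.61), and wild type replicate 1 was high for Ndufb2 1416834_x_at (11.34, the others 11.13 to 11.16). For Ndufc2 1455036_s_at, dnBrg1 replicate 2 was low (12.74, the others 12.87 to 12.89).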

How the results depend on the processing

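Among 25 alternatives, scaling, the added constant, the filter on dim probe sets, variance models, array weights, the sex covariate and the methods' t-test kept 43 to 45 of the 45 Nduf calls (44 of 44 for bright probe sets alone), none with a changed sign. The control covariates moved the counts most. With both controls, probe sets called higher and lower numbered 808 and 634 over all, and for Nduf 2 and 7 probe sets and 1 and 2 genes. With the β-actin control alone, chosen after seeing the data, they numbered 107 and 75 over all and 0 and 0 for Nduf probe sets and genes by limma, with 6 and 13 Nduf probe sets at an unadjusted p under 0.05. With the Gapdh control alone, also chosen after seeing the data, they numbered 2342 and 2024 over all, 11 and 19 for Nduf probe sets and 5 and 10 for Nduf genes. Signs changed for Ndufs4 1418117_at (0.21 with both controls, 0.79 with β-actin alone), Ndufa9 (-0.29, -0.78), Ndufb11 1416057_at (-0.080, -0.25), Ndufb7 1416417_a_at (-0.092, -0.34) and Ndufb7 1448331_at (-0.22, -0.71); the cause was not tested. With the 2 dnBrg1 samples described as polysome-bound RNA, 3040 probe sets were higher and 2600 lower, and for Nduf 11 and 22 probe sets and 5 and 11 genes. With the 2 described as total RNA, 3111 were higher and 2825 lower, and for Nduf 16 and 15 probe sets and 8 and 7 genes, so that lower calls no longer outnumbered higher ones. Both use fewer samples, and kept 33 and 31 of 45 Nduf calls. At an adjusted p under 0.01, 3211 probe sets were higher and 2820 lower over all, with 13 and 21 for Nduf. At 1.5-fold or more they numbered 3349 and 2996, with 13 and 14 Nduf probe sets and 6 and 6 Nduf genes, nearly without the excess of lower calls. Leaving out single samples gave 3924 to 4978 higher and 3776 to 5194 lower over all, 15 to 19 and 22 to 30 Nduf probe sets, and 7 to 9 and 11 to 16 Nduf genes, and kept 38 to 44 of 45 calls. Replicate numbers did not pair the samples (correlations of same-numbered deviations -0.19, -0.01, -0.05 and 0.16). With a replicate block 16 Nduf probe sets were higher and 23 lower, 8 genes higher and 12 lower, and 4064 and 3899 probe sets over all, with 39 of 45 Nduf calls kept. Dim probe sets near the bacterial controls (Ndufa12 1425919_at, Ndufb9 1455934_at) could not show a difference.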
